A study of Mus musculus with 8 samples.

Results

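The genes described here encode the enzymes with which the lining of the colon makes reactive oxygen and nitrogen, and the proteins those enzymes need. They are Nox1, Noxo1, Noxa1, Duox2, Duoxa2 and Nos2, chosen by symbol, 6 of the 54141 gene IDs in the table. RNA-seq libraries came from epithelial cells freed from mouse distal colon with EDTA. The groups were Degs2_KO, homozygous for a mutant allele of the sphingolipid desaturase and hydroxylase gene Degs2 (4 libraries), and WT, wild type (4 libraries), both on the c57bl6/j background and with no treatment named. Age, sex and the part of Degs2 that the allele removes were not stated in the labels. The comparison asks how the loss of Degs2 bears on gene expression in these cells.

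NADPH oxidases pass electrons from NADPH across a membrane to oxygen. NOX1, the form most associated with the colon, makes superoxide together with the membrane partner p22phox (Cyba), the organizer NOXO1, the activator NOXA1 and the small GTPase RAC1. DUOX2 releases hydrogen peroxide at the apical surface and reaches it only with its maturation factor DUOXA2, while NOS2 makes nitric oxide from arginine and is induced by cytokines and microbial products.

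Scaled totals lay between 41622927 and 44606092 fragments per library. Degs2 had 58.2 ± 9.08 CPM (counts scaled to a common library size with edgeR's TMM factors) in Degs2_KO and 122 ± 20.1 CPM in WT (SD, n = 4 each), with ranges that did not overlap. On the first principal component (50.3% of variance) Degs2_KO replicate 3 scored -59.1 and WT replicate 1 scored -53.9, while the remaining 6 scored between -1.09 and 43.0. In those libraries Hoxd13, a homeobox gene of the distal gut, had 0.312 and 0.699 CPM, against 38.8 to 85.3 CPM in the other 6. The epithelial markers Epcam, Cdh1, Krt8, Krt18, Krt19, Krt20, Vil1 and Cdx1 summed to between 13643 and 15367 CPM in Degs2_KO and between 12969 and 16587 CPM in WT.

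All 6 oxidase genes passed the filter on low counts, and none of them differed between the genotypes by the test used. edgeR's quasi-likelihood test called 0 of the 6 after Benjamini-Hochberg adjustment over all genes (adjusted p 0.9996 for each), where it called 0 of 16132 tested genes (0%). At an unadjusted p under 0.05 it found 0 of the 6, against 1.13% of all tested genes (183), and DESeq2 also found 0 of the 6 at either threshold. Degs2 itself had the smallest edgeR unadjusted p of all tested genes, yet an edgeR adjusted p of 0.796. The adjusted threshold thus did not call the mutated gene either, and a lack of calls does not show a lack of difference. In all 6 genes the ranges of the genotypes overlapped; ranges were apart for 1.04% of tested genes. The log2 fold change of Degs2_KO over WT was above 0 for 2 members and below 0 for 4, with a median of -0.19, beside a median of -0.01 over all tested genes. The 95% interval of the ratio of Degs2_KO to WT was narrowest for Noxo1, 0.841 to 1.13, and widest for Nos2, 0.396 to 1.56.

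**Figure D1:**
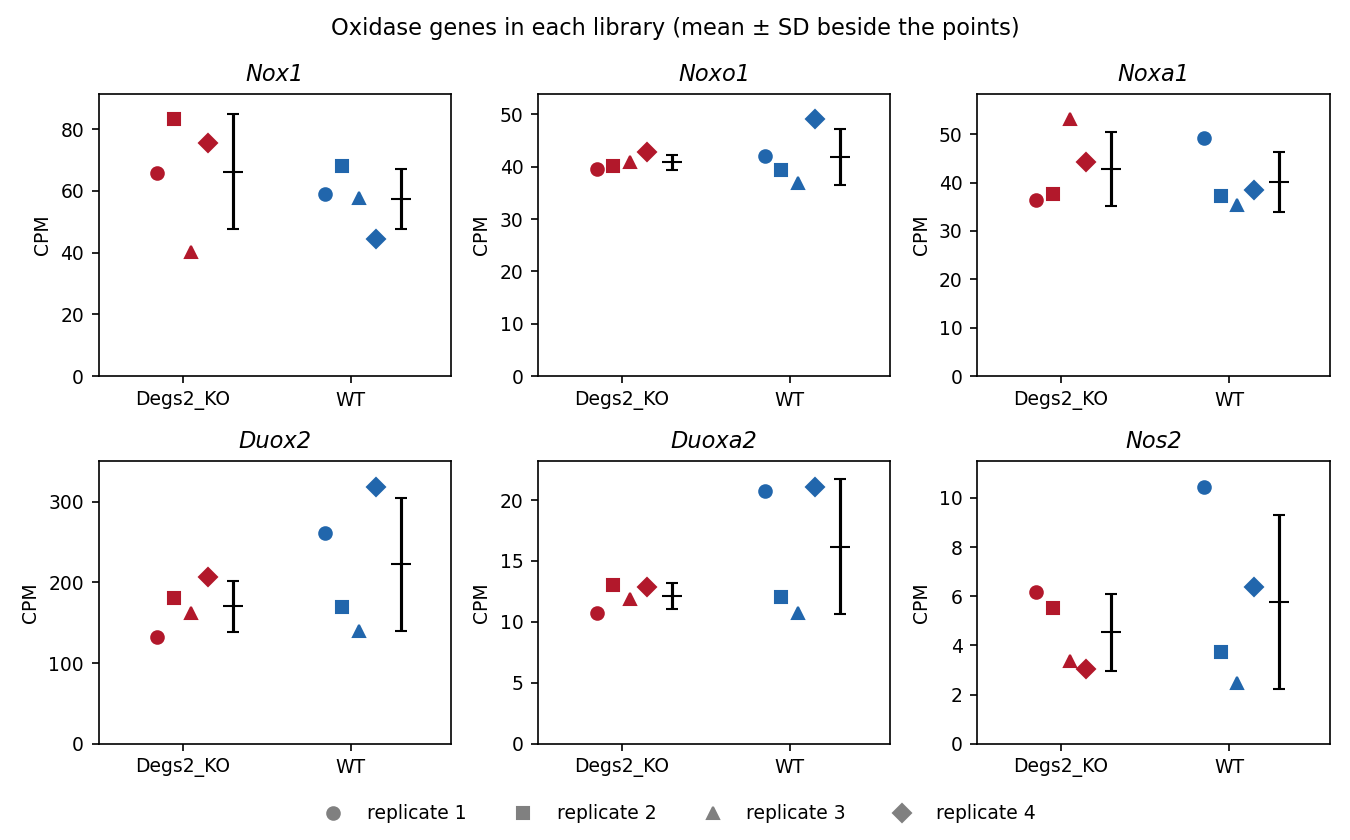
CPM (vertical axes, from 0) of the 6 oxidase genes in the 4 Degs2_KO libraries (left, red) and the 4 WT libraries (right, blue), with 1 symbol per replicate number and the mean ± SD beside the points. The genotypes overlap in every panel; WT replicates 1 and 4 stand highest for Duox2 and Duoxa2.

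**Figure D2:**
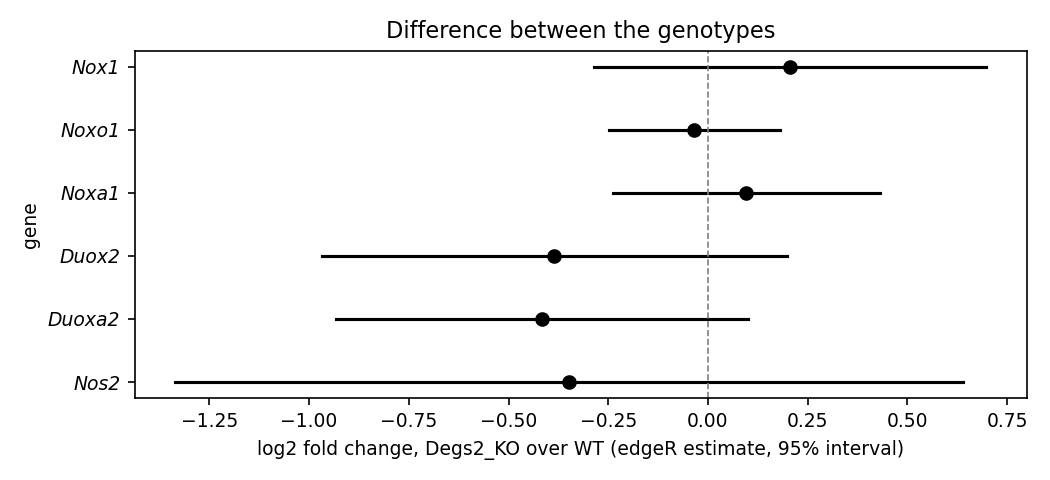
Log2 fold change of Degs2_KO over WT (horizontal axis) for each oxidase gene, as edgeR's estimate (point) with its 95% interval (line). Every interval spans 0; Noxo1 has the narrowest and Nos2 the widest.

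Levels of different genes were compared per kilobase of annotated exon. Duox2 averaged 29.0 CPM per kb over the 8 libraries (19.5 to 47.1), Noxa1 25.6 (21.9 to 32.8), Nox1 18.7 (12.2 to 25.2), Noxo1 13.7 (12.2 to 16.3) and Duoxa2 8.89 (6.72 to 13.2). In that order the ranges of every pair of neighbours overlapped. Nos2 came last, at 1.17 CPM per kb (0.563 to 2.37), below every value of Duoxa2. Among the partners, Rac1 had 106 CPM per kb and Cyba 28.9. Duox1, the other dual oxidase, had 0.188 CPM per kb and its maturation factor Duoxa1 1.57. In these cells the dual oxidase transcripts per length were thus mostly those of Duox2. The Duoxa1 value may include fragments of Duoxa2, with which Duoxa1 shares exon sequence on the other strand. Cybb, the catalytic subunit of the phagocyte oxidase, had 0.0555 CPM per kb.

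**Figure D3:**
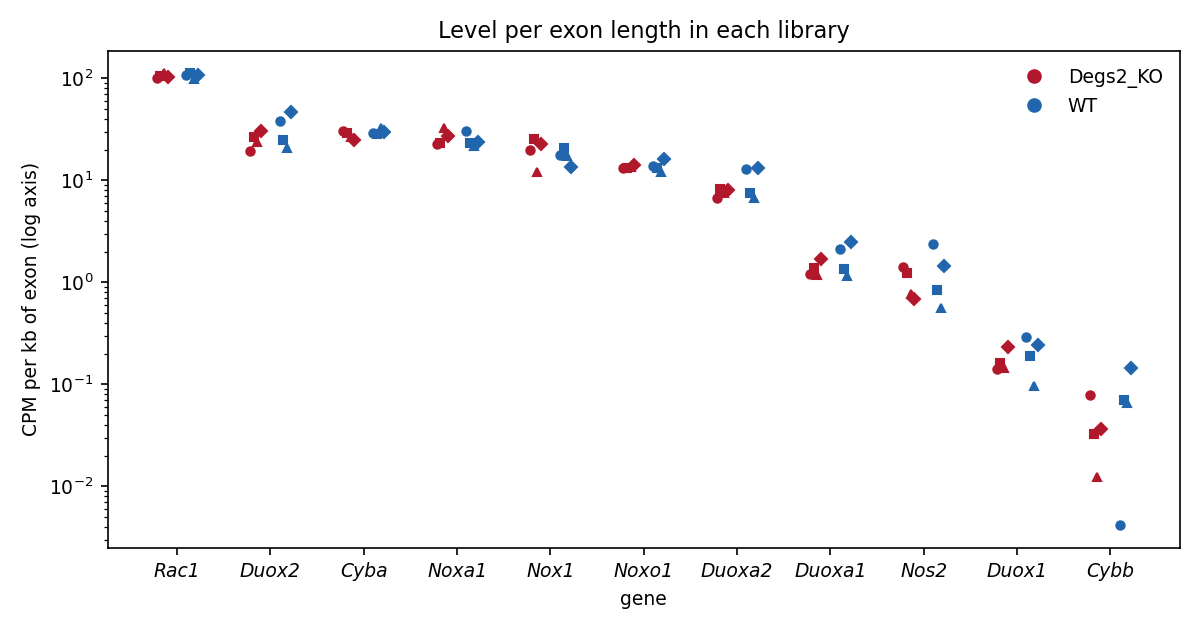
CPM per kb of exon (vertical log axis) for the oxidase genes and their relatives, ordered by the mean over the 8 libraries, with Degs2_KO libraries in red at the left of each gene and WT libraries in blue at the right. Duox2, Cyba, Noxa1, Nox1 and Noxo1 lie between 12.2 and 47.1, and no library exceeds 2.37 for Nos2 or 0.288 for Duox1.

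Nox1 (ENSMUSG00000031257) is annotated on the minus strand of chromosome X from 134086421 to 134221956 (GRCm38). It had 65.8, 83.2, 40.4 and 75.4 CPM in Degs2_KO replicates 1 to 4, against 59.1, 68.1, 57.7 and 44.5 CPM in WT replicates 1 to 4. Degs2_KO replicate 3 was the lowest of all libraries and Degs2_KO replicate 2 the highest. The means were 66.2 ± 18.6 CPM in Degs2_KO and 57.4 ± 9.71 CPM in WT (SD, n = 4 each), a log2 fold change of 0.21 ± 0.22 (SE) with an unadjusted p of 0.366 by edgeR. Without Degs2_KO replicate 3 the log2 fold change was 0.38, with an edgeR unadjusted p of 0.0303 and an adjusted p of 0.9999. Of its exons, 12.1% of the length overlaps those of Cstf2, a gene of messenger RNA processing on the other strand, which had 79.8 CPM in Degs2_KO and 74.6 CPM in WT.

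The Nox1 promoter window of RefSeq (GRCm38.p6, chrX:134111805-134112104, minus strand) is shown because Nox1 encodes the catalytic subunit of its complex and varied more between libraries than its partner genes. It holds 250 bases before the RefSeq start site, at 134111854, and 50 from it on. That site lies inside the gene as annotated above, whose minus-strand start is at 134221956. The window therefore does not cover that annotated start. Capitals mark matches, on either strand, to 7 motifs. The TATA box was searched as TATAAA and the AP-1 motif as TGANTCA. The GATA motif was searched as TGATAA and the CDX motif as TTTATG. The STAT motif was searched as TTCNNNGAA. An interferon response element and an NF-kappaB motif were searched too.
Nox1: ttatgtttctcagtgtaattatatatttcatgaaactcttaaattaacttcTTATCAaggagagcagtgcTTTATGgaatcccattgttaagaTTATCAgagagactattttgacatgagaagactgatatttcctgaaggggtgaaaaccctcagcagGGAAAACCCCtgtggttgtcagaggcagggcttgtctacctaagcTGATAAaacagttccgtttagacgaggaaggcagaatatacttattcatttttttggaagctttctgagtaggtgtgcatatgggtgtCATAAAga
The window has 3 matches to TGATAA, of which the nearest begins 46 bases before the start site, 2 to TTTATG and 1 to the NF-kappaB motif, none of them overlapping. At least 1 match was present in 9.05% of 32851 promoter windows for TGATAA, 11.9% for TTTATG and 1.63% for the NF-kappaB motif. For TGATAA, 0.0852% of windows (28) had 3 or more matches. The cut of 3 equals the number in the Nox1 window itself, so that share is not a test of the window. A match describes letters in a window, not a site. Levels of factors of these families overlapped between the genotypes: Gata6 had 72.8 to 76.7 CPM in Degs2_KO and 72.6 to 79.8 CPM in WT, and Cdx2 179 to 299 CPM in Degs2_KO and 127 to 289 CPM in WT. Cdx2 was highest in Degs2_KO replicate 3 and WT replicate 1, so it varied far more between libraries than Gata6 did.

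Noxo1 (ENSMUSG00000019320, chromosome 17, 24696234 to 24700529, plus strand), which holds the NOX1 complex at the membrane, was the steadiest of the 6. It had 39.6, 40.0, 40.8 and 42.9 CPM in Degs2_KO replicates 1 to 4, against 42.0, 39.4, 36.8 and 49.1 CPM in WT replicates 1 to 4. The Degs2_KO libraries lay inside the WT range, and the log2 fold change was -0.03 ± 0.09 (SE; edgeR unadjusted p 0.724). The SD of its log2 CPM over the 8 libraries was 0.12, below the median of 0.14 among 2320 genes of like level (within 0.5 log2 CPM). Exons of Tbl3, a gene on the other strand, cover 70.4% of the annotated exon length of Noxo1. Tbl3 had 60.4 CPM in Degs2_KO and 61.1 CPM in WT, and since the strand setting of the counting is not given, fragments of the overlap cannot be assigned with certainty to either gene.

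Noxa1 (ENSMUSG00000036805, chromosome 2, 25085667 to 25095149, minus strand), the activator of NOX1, had 36.5, 37.6, 53.1 and 44.3 CPM in Degs2_KO replicates 1 to 4, against 49.2, 37.3, 35.4 and 38.4 CPM in WT replicates 1 to 4. Its 2 highest values were those of Degs2_KO replicate 3 and WT replicate 1, the libraries with the least Hoxd13. The genotype means, 42.9 ± 7.65 CPM in Degs2_KO and 40.1 ± 6.24 CPM in WT (SD, n = 4 each), gave a log2 fold change of 0.10 ± 0.15 (SE; edgeR unadjusted p 0.529). Without Degs2_KO replicate 3 it was -0.02. The part that position along the colon plays in the values of Noxa1 was not tested.

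Duox2 (ENSMUSG00000068452) and Duoxa2 (ENSMUSG00000027225) lie head to head on chromosome 2, Duox2 on the minus strand from 122279247 to 122298449 and Duoxa2 on the plus strand from 122298900 to 122302885, with 451 bp between the annotated starts. Duox2, the oxidase, had 132, 181, 162 and 206 CPM in Degs2_KO replicates 1 to 4, against 261, 170, 140 and 319 CPM in WT replicates 1 to 4. Duoxa2, its maturation factor, had 10.7, 13.0, 11.9 and 12.9 CPM in Degs2_KO replicates 1 to 4, against 20.8, 12.1, 10.7 and 21.1 CPM in WT replicates 1 to 4. For both genes WT replicates 1 and 4 were above all other libraries, and WT replicates 2 and 3 lay among the Degs2_KO libraries. Duox2 averaged 170 ± 31.3 CPM in Degs2_KO and 222 ± 82.4 CPM in WT, and Duoxa2 12.1 ± 1.08 CPM in Degs2_KO and 16.2 ± 5.53 CPM in WT (SD, n = 4 each). The log2 fold changes were -0.38 ± 0.26 for Duox2 (SE; edgeR unadjusted p 0.169) and -0.42 ± 0.23 for Duoxa2 (unadjusted p 0.102). Without WT replicate 4 the log2 fold change of Duox2 was -0.16, and without WT replicate 3 it was -0.55 (edgeR unadjusted p 0.0396, adjusted p 0.9999). For Duoxa2 it was -0.26 without WT replicate 4 and also without WT replicate 1. It was -0.57 without WT replicate 3 (edgeR unadjusted p 0.0206, adjusted p 0.9999) and -0.53 without WT replicate 2 (unadjusted p 0.0494, adjusted p 0.99998). WT replicate 4 also had the highest summed level of the fibroblast markers Dcn, Col1a1, Col1a2, Col3a1, Pdgfra and Lum, 30.8 CPM. The Degs2_KO libraries had 1.33 to 15.9 CPM. WT replicate 1, the other library high in both oxidase genes, had the lowest WT sum, 4.05 CPM. WT replicates 2 and 3 had 6.14 and 9.22 CPM. The part of other cells in the Duox2 values was not tested. In bulk libraries fewer cells of a type and less RNA per cell cannot be told apart.

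The promoter windows of the pair are shown because the transcripts moved together across libraries (RefSeq, GRCm38.p6; Duox2 at chr2:122298178-122298477, minus strand; Duoxa2 at chr2:122298650-122298949, plus strand; capitals as for Nox1).
Duox2: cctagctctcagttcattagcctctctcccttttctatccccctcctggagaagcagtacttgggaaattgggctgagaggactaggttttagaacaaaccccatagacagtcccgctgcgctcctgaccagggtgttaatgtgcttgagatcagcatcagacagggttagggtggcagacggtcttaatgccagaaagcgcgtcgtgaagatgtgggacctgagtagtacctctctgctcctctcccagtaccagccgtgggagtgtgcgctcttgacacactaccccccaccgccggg
Duoxa2: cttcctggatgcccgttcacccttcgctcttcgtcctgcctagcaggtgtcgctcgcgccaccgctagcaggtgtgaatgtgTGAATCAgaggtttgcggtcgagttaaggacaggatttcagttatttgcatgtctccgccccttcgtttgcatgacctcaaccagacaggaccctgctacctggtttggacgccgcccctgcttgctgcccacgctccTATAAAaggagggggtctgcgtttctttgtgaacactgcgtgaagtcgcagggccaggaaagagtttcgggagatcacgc
The RefSeq start sites are 673 bp apart. That of Duox2, at 122298227, lies inside the gene as annotated above, whose minus-strand start is at 122298449. Most of the Duox2 window therefore lies inside the annotated gene, with only a short stretch before the annotated start. The Duoxa2 window has a TATAAA match beginning 30 bases before its start site, present somewhere in 13.6% of all windows. It also has a match to the looser pattern TGANTCA beginning 168 bases before that site, present in 7.81%. That match reads TGAATCA, with A in the middle, and so is not the AP-1 motif itself. The Duox2 window has no match to any of the 7 patterns as searched, nor have those of Noxo1 and Noxa1. Because wider forms were not searched, this does not show that the windows lack such motifs. 5 of the 6 members had a window.

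The tie between Duoxa2 and Duox2 was the closest of the 5 ratios examined. The log2 CPM ratio of Duoxa2 to Duox2 was -3.62, -3.79, -3.76 and -4.00 in Degs2_KO replicates 1 to 4, against -3.65, -3.81, -3.70 and -3.91 in WT replicates 1 to 4. Its SD over the 8 libraries was 0.13, where the log2 CPM of Duox2 alone had an SD of 0.44 and that of Duoxa2 0.39. The difference of the ratio between the genotypes was -0.03 on the log2 scale (exact 2-sided permutation test, p = 0.8; 70 assignments, smallest possible p 0.0286). A caution applies to Duoxa2 and to Duoxa1: 42.8% of the exon length of Duoxa2 overlaps exons of Duoxa1 on the other strand. Since the strand setting is not given, fragments of the overlap cannot be assigned with certainty to either gene. Duoxa1, the partner of Duox1, had 4.79, 5.46, 4.70 and 6.71 CPM in Degs2_KO replicates 1 to 4, against 8.46, 5.38, 4.58 and 9.85 CPM in WT replicates 1 to 4, again with WT replicates 1 and 4 highest.

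Duox2 did not keep step with Nox1. The log2 ratio of Duox2 to Nox1 was 1.01, 1.12, 1.999 and 1.45 in Degs2_KO replicates 1 to 4, against 2.14, 1.32, 1.28 and 2.84 in WT replicates 1 to 4, with an SD of 0.63 over all libraries. WT replicate 4, highest in Duox2, was the second lowest in Nox1. Per kb of exon, Duox2 was between 0.982 and 3.50 times Nox1. The ratio differed by -0.50 on the log2 scale between the genotypes, less than the spread allows to call (exact permutation test, p = 0.257). For Noxo1 to Nox1 the difference was -0.20 (p = 0.486), for Noxa1 to Nox1 -0.08 (p = 0.886) and for Nos2 to Duox2 0.12 (p = 0.8; exact permutation tests). WT replicate 4 weighs on the ratios to Nox1: without it the difference was -0.18 for Duox2 to Nox1 and -0.0031 for Noxo1 to Nox1. Adjusted by Benjamini-Hochberg over the 5 ratios, each exact p was 0.886.

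**Figure D4:**
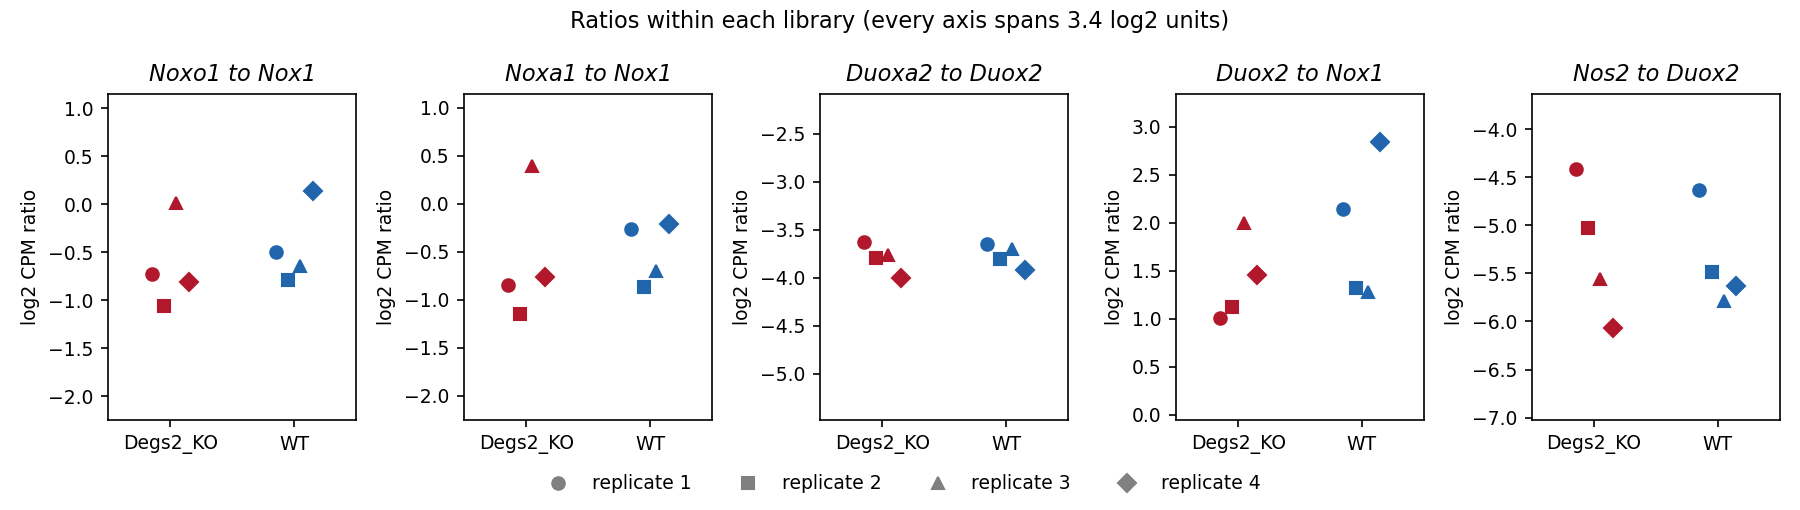
Log2 CPM ratios within each library (vertical axes of equal span) for 5 pairs of oxidase genes, Degs2_KO at the left in red and WT at the right in blue, with 1 symbol per replicate number. Duoxa2 to Duox2 stays between -4.00 and -3.62, whereas Duox2 to Nox1 runs between 1.01 and 2.84.

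Nos2 (ENSMUSG00000020826, chromosome 11, 78920787 to 78960254, plus strand), the inducible nitric oxide synthase, was the most variable of the 6 on the log scale. It had 6.19, 5.50, 3.38 and 3.04 CPM in Degs2_KO replicates 1 to 4, against 10.5, 3.74, 2.48 and 6.37 CPM in WT replicates 1 to 4, on 104 to 434 scaled fragments per library. Both the highest and the lowest value were WT. The means were 4.53 ± 1.55 CPM in Degs2_KO and 5.76 ± 3.52 CPM in WT (SD, n = 4 each), a log2 fold change of -0.35 ± 0.44 (SE; edgeR unadjusted p 0.445). WT replicate 1 sets the sign: without it the log2 fold change was 0.12. The other nitric oxide synthases were near the detection limit, Nos1 at 0.0955 CPM or less and Nos3 at 0.0479 CPM or less in every library.

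Immune cells can also make nitric oxide, and the part of such cells in the Nos2 values was not tested. The 10 T cell markers (Cd3e, Cd3d, Cd3g, Cd8a, Cd8b1, Cd4, Trac, Cd7, Gzma, Gzmb) summed to 13.5, 9.44, 24.9 and 6.29 CPM in Degs2_KO replicates 1 to 4, against 29.3, 8.24, 2.36 and 15.5 CPM in WT replicates 1 to 4. WT replicate 1 was highest and WT replicate 3 lowest in both the T cell sum and Nos2, and Degs2_KO replicate 3 had the second highest T cell sum beside 3.38 CPM of Nos2. The 13 myeloid markers summed to between 48.2 and 80.3 CPM in Degs2_KO and between 54.0 and 89.5 CPM in WT, mostly from Cd14 and Ly6g. Which cells the Cd14 and Ly6g transcripts came from was not tested, so the sum is not taken as a level of myeloid cells. In WT replicate 1, the library with the most Nos2, the myeloid markers differed among themselves. Ptprc, the pan-leukocyte marker, was highest there (16.2 CPM, against 7.31 to 12.03 CPM in Degs2_KO and 5.52 to 10.7 CPM in the other WT libraries), and so was C1qa (2.51 CPM, against 0.193 to 0.456 CPM in Degs2_KO and 0.287 to 0.406 CPM in the other WT libraries). Csf1r, Adgre1, C1qb, Cybb and Ly6g were lowest there, with Adgre1 at 0.0241 CPM, against at most 0.167 CPM elsewhere. Of the 13 myeloid markers 0 were at 0 in every library. Of the myeloid and T cell markers, 0 of 20 tested members passed edgeR's adjusted threshold.

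The spread of the members between libraries was set beside that of genes of like level. The SD of log2 CPM over the 8 libraries was 0.68 for Nos2, 0.44 for Duox2, 0.39 for Duoxa2, 0.36 for Nox1 and 0.22 for Noxa1. Within 0.5 log2 CPM of each gene's mean, 91.7% of genes had a smaller SD than Nos2, 94.1% than Duox2, 87.1% than Duoxa2, 92.4% than Nox1 and 76.6% than Noxa1. The highest library was 4.21 times the lowest for Nos2, 2.41 times for Duox2 and 1.33 times for Noxo1.

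Genes whose pattern across the 8 libraries came nearest to that of a member were found by the mean absolute difference of log2 CPM, each gene centred on its own mean, among 11551 named genes of at least 1 CPM. For Duox2 the nearest were Duoxa1 (0.07), Ppifos (0.16), Olfr204 (0.16), D6Ertd527e (0.17) and Leng8 (0.17), beside a median of 0.37 over the candidates. Duoxa2 was at 0.10. Duoxa1 shares exon sequence with Duoxa2, and the part of Duoxa2 fragments in the Duoxa1 pattern was not tested. For Nos2 they were Socs1, which encodes an inhibitor of cytokine signalling (0.13), Dock10 (0.21), Tap1, a peptide transporter of MHC class I loading (0.25), Lsp1 (0.25) and Cmpk2 (0.25), with a median of 0.58. Duoxa2 stood at 0.41 from Nos2, Duox2 at 0.48 and Nox1 at 0.62. For Nox1 they were Cad, an enzyme of pyrimidine synthesis (0.10), Gal3st2 (0.12), Barx2 (0.12), Topbp1, a DNA replication factor (0.12), and Fancb (0.12), with a median of 0.31; Noxo1 and Noxa1 lay at 0.33 and 0.39 from Nox1, both beyond that median. Without WT replicate 1 and Degs2_KO replicate 3, Noxa1 was at 0.199 and Noxo1 at 0.263, beside a median of 0.257, so that Noxa1 was then nearer to Nox1 than most candidates. Without WT replicate 1 and Degs2_KO replicate 3 the 5 nearest to Nox1 were Tedc1, Fanci, Cdca5, Fstl4 and Ctps, with 0 of the first 5 among them, whereas 2 of 5 (Socs1 and Tap1) were shared for Nos2 and 1 of 5 (Duoxa1) for Duox2. These distances are descriptions over 8 libraries and carry no test.

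**Figure D5:**
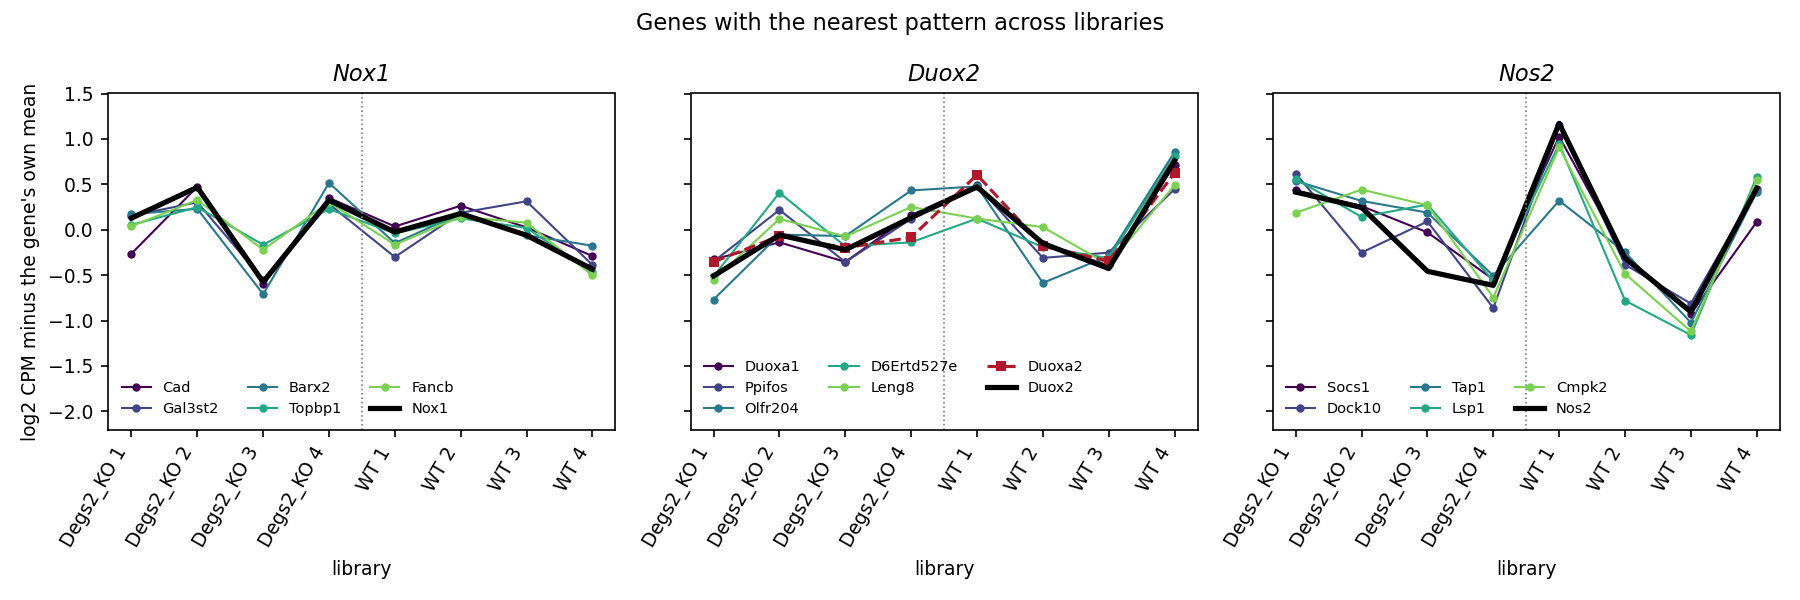
Log2 CPM minus each gene's own mean (vertical axis) across the 4 Degs2_KO libraries (left of the dotted line) and the 4 WT libraries (right), for Nox1, Duox2 and Nos2 (thick black lines) with the 5 genes of nearest pattern and, for Duox2, Duoxa2 (dashed). Nos2 and its nearest genes are high in WT replicate 1 and low in WT replicate 3, with Tap1 below the others in WT replicate 1, while Nox1 is lowest in Degs2_KO replicate 3.

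The other NADPH oxidase genes gave no call. Of 11 listed, 9 were tested, 1 had a log2 fold change above 0 and 8 below, with a median of -0.11 and 0 past edgeR's adjusted threshold. Duoxa1 had a log2 fold change of -0.38 ± 0.25 (SE), Cyba -0.11 ± 0.09, Cybb -0.81 ± 0.77 and Duox1 -0.26 ± 0.35. Rac1 had 474 ± 21.1 CPM in Degs2_KO and 481 ± 27.2 CPM in WT (SD, n = 4 each). Of the phagocyte oxidase genes, Ncf1, Ncf4 and Cybb had at most 1.48, 0.501 and 0.835 CPM. Rac2, the blood cell form of the GTPase, was highest in Degs2_KO replicate 3 (6.81 CPM) and WT replicate 1 (6.87 CPM) and lay between 1.46 and 3.89 CPM elsewhere. Nox4 had at most 0.119 CPM, and Nox3 was at 0 in every library, which at this depth allows up to 3 fragments per library.

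Genes of nitric oxide and its cofactor split evenly. Of 17 listed, 15 were tested, 8 with a log2 fold change above 0 and 7 below (median 0.01), and 0 passed edgeR's adjusted threshold. Among the smallest unadjusted p-values were those of Gchfr, the feedback regulator of tetrahydrobiopterin synthesis (log2 fold change -0.34 ± 0.24 SE), Pts, a synthase of that pathway (-0.11 ± 0.08), and Arg2, an arginase that competes for arginine (-0.57 ± 0.43). Ass1, which remakes arginine from citrulline, had 29.7 ± 5.74 CPM in Degs2_KO and 29.5 ± 5.15 CPM in WT (SD, n = 4 each).

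The enzymes that remove superoxide and peroxide were likewise close between the genotypes. All 17 were tested, 11 with a log2 fold change above 0 and 6 below (median 0.04), and 0 passed edgeR's adjusted threshold. Txn1, thioredoxin, had a log2 fold change of 0.15 ± 0.10 (SE), Gpx3 -0.61 ± 0.44, Prdx2 0.09 ± 0.07 and Gpx1 0.09 ± 0.08. Gpx2, the glutathione peroxidase of the gut lining, had 304 ± 38.5 CPM in Degs2_KO and 299.6 ± 86.0 CPM in WT (SD, n = 4 each). Of the haem peroxidases, which use hydrogen peroxide, Pxdn had a log2 fold change of 0.53 ± 0.23 (edgeR unadjusted p 0.0494, adjusted p 0.9996). Lpo, lactoperoxidase, had 17.4, 18.4, 66.6 and 26.4 CPM in Degs2_KO replicates 1 to 4, against 56.7, 20.4, 10.3 and 25.8 CPM in WT replicates 1 to 4, so that Degs2_KO replicate 3 and WT replicate 1 were far above the rest. Epx had at most 0.0959 CPM, and Mpo was at 0 in every library.

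Receptors and transcription factors through which cytokines and microbes induce oxidase genes showed no call: of 26 tested, 10 had a log2 fold change above 0 and 16 below (median -0.01). Those with the smallest unadjusted p were Il1r1 (-0.19 ± 0.12 SE), Relb (-0.18 ± 0.13), Il4ra (0.19 ± 0.16) and Ifngr2 (-0.12 ± 0.11). Of 19 epithelial genes that respond to IL-17, IL-22 or NF-kappaB, 15 were tested, 5 with a log2 fold change above 0 and 10 below (median -0.06), and 0 passed the adjusted threshold. At an unadjusted p under 0.05 there were 3 of the 15, all lower in Degs2_KO, where 0.806% of all tested genes were: Steap4, Saa2 and Saa1. Saa1 had 313, 293, 160 and 280 CPM in Degs2_KO replicates 1 to 4, against 197, 548, 599 and 669 CPM in WT replicates 1 to 4. WT replicate 1, among the highest in Duox2 and the highest in Nos2, was thus the lowest WT library in Saa1. Lcn2, S100a8 and S100a9, which are abundant in an inflamed colon, had at most 0.0712, 0.0476 and 0.0716 CPM.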

How the data were processed

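Per the submitters' processing notes, the build was mm10 and the tools were Cuffdiff, Cufflinks 2.1.1, TopHat2 2.0.10 and cutadapt 1.9. Their order, the annotation and the strand setting were not given in the sources used here. Per the file headers, the deposited values are estimated counts by gene and library, each beside a status word; from the values, 1 factor scales each library. Of 54141 IDs, 54074 matched a symbol. The 47 genes with a failed estimate were left out.

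Estimated counts were rounded and normalized by TMM after filterByExpr (at least 10 counts, 15 in total) kept 16132 genes. The genotype test was, in edgeR 4.0.16 (R 4.3.3), the quasi-likelihood F test on group alone, 2-sided, with Benjamini-Hochberg adjustment and a threshold of 0.05. Log2 CPM used a prior count of 2. Alternatives used limma 3.58.1 and DESeq2 1.42.0. Ratios had exact permutation tests. Simulated data tested the scripts.

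No label says whether libraries are from different mice, so the p-values cover the spread between these samples, which may be technical. Dividing by the scaling factor gave 32.8 to 49.8 M fragments per library; the median SE of a log2 fold change was 0.161.

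The members and gene lists (152 of 153 symbols matched), and the motifs, were chosen with earlier results of these data or the sequences known. Genes named besides the members are, per list, up to 4 with the smallest unadjusted p, NADPH oxidase relatives and haem peroxidases, and for Nox1, Duox2 and Nos2 the 5 nearest in pattern. Reg3b, Reg3g, Hoxd13, Cd14, Ly6g, Ptprc, C1qa, C1qb, Csf1r, Adgre1, Gata6, Cdx2, Ass1, Gpx2, Lcn2, S100a8, S100a9, Nos1 and Nos3 were added after their values were seen. GENCODE M21 (GRCm38, which is mm10) gave the coordinates and exon lengths. Some listed genes are counted but not reported by name here.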

Additional observations from a re-analysis of the deposited data

How the results depend on the processing

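The fold changes of the 6 oxidase genes were recomputed under 19 alternatives each, and 0 passed an adjusted p of 0.05 (lowest 0.879). Duox2 (-0.55 to -0.16) and Duoxa2 (-0.57 to -0.24) kept their sign in all 19, on the log2 scale. A block on adjoining library ID numbers (3 pairs, 6 libraries) gave -0.0682 for Nox1 and 0.0618 for Noxo1, opposite to the fit over all libraries. Leaving out 1 library at a time gave ranges of 0.08 to 0.38 for Nox1, -0.0904 to 0.0516 for Noxo1 (above 0 without WT replicate 4), -0.0227 to 0.22 for Noxa1 (below 0 without Degs2_KO replicate 3) and -0.60 to 0.12 for Nos2 (above 0 without WT replicate 1). Without both WT replicate 1 and Degs2_KO replicate 3 the fold change of Nos2 was 0.23. Leaving out 1 library moved the ratio difference of Noxa1 to Nox1 between -0.41 and 0.11, that of Noxo1 to Nox1 between -0.42 and -0.0031, that of Duox2 to Nox1 between -0.70 and -0.18, that of Duoxa2 to Duox2 between -0.0820 and 0.0427 and that of Nos2 to Duox2 between -0.16 and 0.39, and without WT replicate 1 and Degs2_KO replicate 3 Duoxa2 to Duox2 was 0.0026. The causes were not tested.

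edgeR and limma called 0 genes in every fit and DESeq2 called 2, Degs2 and Dlk1. The 183 genes under an unadjusted p of 0.05 became 401 without a filter, 79 with the ID block, 650 without WT replicate 1 and Degs2_KO replicate 3, and 133 to 782 with 1 library left out (782 when WT replicate 1 was dropped, 298 for Degs2_KO replicate 1 and 292 for Degs2_KO replicate 3). Titles give both genotypes the numbers 1 to 4, but same-numbered libraries deviated together with r of -0.42, 0.44, -0.56 and -0.10, so the numbers are not taken as pairs; the replicate block left 99 genes under 0.05 and gave Nox1 0.17, Duox2 -0.33 and Nos2 -0.21, with 0 calls. Of the 5 genes nearest in pattern, 0 were shared for Nox1, 1 for Duox2 and 2 for Nos2 without WT replicate 1 and Degs2_KO replicate 3. Nos2 rests on the fewest scaled fragments of the 6 (104 to 434). Differences within the intervals given were not detectable with 4 libraries a group.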

Other observations

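The antimicrobial lectin genes Reg3b and Reg3g varied more between libraries than any oxidase gene. Reg3b had 0.578, 0.237, 13.7 and 0.451 CPM in Degs2_KO replicates 1 to 4, against 64.2, 2.33, 0.191 and 14.4 CPM in WT replicates 1 to 4. Reg3g had 0.915, 0.213, 7.60 and 1.40 CPM in Degs2_KO replicates 1 to 4, against 20.3, 1.26, 0.263 and 10.8 CPM in WT replicates 1 to 4. Both were highest in WT replicate 1, where Nos2 was highest too, but Degs2_KO replicate 3, which had the next most after WT replicates 1 and 4, had 3.38 CPM of Nos2. Neither differed between the genotypes by edgeR (unadjusted p 0.17 for Reg3b and 0.219 for Reg3g).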
